A study of Homo sapiens with 18 samples.

Results

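The genes described here are 30 enzymes, regulators and carriers of cholesterol and fatty acid synthesis, taken by name as rows of the expression table of 22336 genes. All 30 were present in that table. They fall into 4 roles. There are 6 genes of the mevalonate steps, 9 of the squalene and sterol steps, 6 regulators and transport genes, and 9 genes of fatty acid synthesis. The study asked which sequences of the human genome can act as enhancers in LNCaP, a prostate adenocarcinoma cell line, and how opening the chromatin bears on them. The 18 samples come from 3 assays. WHG-STARR-seq, a reporter screen of the entire genome, clones genomic fragments behind a minimal promoter so that an active fragment drives its own transcription, and 1 plasmid input library was set against 2 output replicates collected 72 hours after electroporation. ATAC-seq, which marks accessible DNA by transposase insertion, was done on 3 replicates treated with TSA (trichostatin A, a histone deacetylase inhibitor) at 100 ng/ml for 24 hours and on 3 given the DMSO vehicle. mRNA-seq was done on 3 untreated, 3 TSA and 3 DMSO replicates. In every group but the plasmid input, cells were kept for 72 hours in medium free of phenol red with serum stripped by charcoal and dextran. Stripping removes steroids and other lipophilic molecules. The 72 hours came before treatment in the TSA and DMSO groups and ran until harvest for WHG-STARR-seq output.

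The values used are pooled. The expression table gives 1 average level per gene, the ATAC-seq lists give 1 score per peak and condition, and the enhancer lists give 1 fold enrichment per peak from both output replicates together. No replicate error and no test can therefore be attached to any difference below, and levels of the genes under TSA and vehicle separately are not given here. The luminal prostate markers KLK3, FOLH1 and HOXB13 were expressed, at 8.04, 11.17 and 8.81 log2 CPM. The basal markers KRT14 and TP63 stood at -0.86 and -1.89, and the leukocyte markers PTPRC, CD14 and CD3E at -1.89, -2.33 and -2.62 log2 CPM. The basal keratin KRT5 was present at 6.23 log2 CPM. Of the stromal genes, VIM and COL1A1 stood at 5.88 and 6.77 log2 CPM, and COL1A2 and ACTA2 at 0.37 and 1.25.

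Cholesterol and the isoprenoids are built from acetyl-CoA through mevalonate, squalene and lanosterol, and fatty acids are built from the same acetyl-CoA through malonyl-CoA. Transcription of both branches is driven by the SREBP factors, which are made as membrane proteins. SCAP carries them from the endoplasmic reticulum to the Golgi for cleavage when sterols are low, and the INSIG proteins hold them back when sterols are plentiful. Prostate cancer cells are well known for high lipid synthesis.

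As a group the genes were highly expressed. Levels are compared per kb of exon, as the authors' average log2 CPM less the log2 of the summed exon length in kb. That average comes from a fit of TSA against vehicle, so it is probably not the level of untreated or vehicle cells alone. The median of the 30 genes was 4.34 log2 CPM per kb, against 1.51 for the 20835 genes that could be given a length, which places it at percentile 83.8 of all genes. Every one of the 30 averaged at least 1 CPM, as did 67.7% of all genes. Of the 30, 27 lay above the median of all genes, which 50.0% of genes do. The highest 25.0% of genes held 25 of them, and the highest 10.0% held 10. These shares are of all genes, expressed or not. Among genes of at least 1 CPM the median of the 30 lay at percentile 76.0. The medians by role were 5.08 log2 CPM per kb for fatty acid synthesis, 4.26 for the squalene and sterol steps, 4.20 for the regulators and transport genes and 3.91 for the mevalonate steps.

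**Figure D1:**
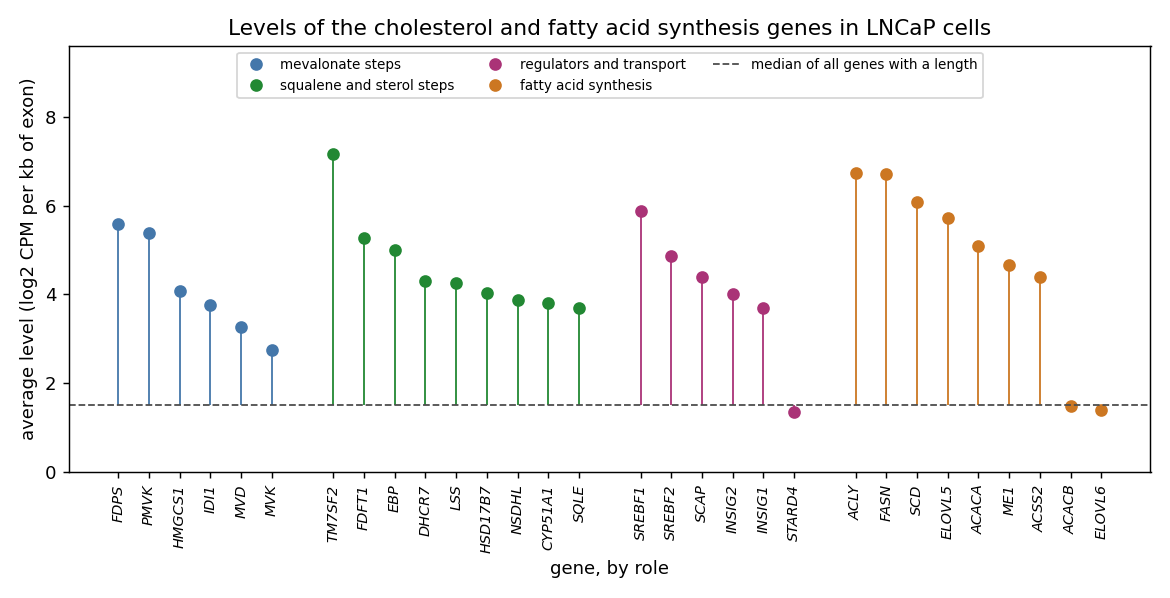
Average level of each of the 30 genes in log2 CPM per kb of exon (vertical axis), ordered within each role, with the median of all genes with a length (1.51) as a dashed line. TM7SF2, ACLY and FASN stand highest at 7.17, 6.74 and 6.72, and ACACB, ELOVL6 and STARD4 lie just under the dashed line.

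The levels within fatty acid synthesis covered the widest range of the 4 roles. ACLY, which cleaves citrate to cytosolic acetyl-CoA, stood at 6.74 log2 CPM per kb. FASN, the synthase that assembles palmitate, stood at 6.72, and with 9.80 log2 CPM it had the largest share of reads of the 30 genes. SCD, the desaturase that makes oleate, stood at 6.09. ELOVL5, an elongase of polyunsaturated chains, was at 5.73. ELOVL6, the elongase acting on palmitate, was at 1.38. The carboxylases that form malonyl-CoA were also far apart, with cytosolic ACACA at 5.08 and the mitochondrial form ACACB at 1.49. ME1, a source of NADPH, was at 4.66. ACSS2, which makes acetyl-CoA from acetate, was at 4.39. ACLY, ACACA, FASN and SCD were thus high together, and ELOVL6 and ACACB sat near the median of all genes.

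Among the sterol genes the order was flatter. TM7SF2, a sterol reductase, was the highest of all 30 at 7.17 log2 CPM per kb. The other 8 genes of the squalene and sterol steps lay between 3.69 and 5.26. They were led by FDFT1, squalene synthase, at 5.26 and EBP, the sterol isomerase, at 4.99. DHCR7, the reductase of a final step, was at 4.29. LSS, which closes the ring to lanosterol, was at 4.26. HSD17B7 was at 4.03 and NSDHL at 3.87, both acting in removal of methyl groups from the ring. CYP51A1, lanosterol demethylase, was at 3.81. SQLE, the epoxidase that is a control point of the pathway, was the lowest of this role at 3.69. The near copies of HSD17B7 and of several other sterol genes in the genome can take up or lose reads, so small differences in this order are uncertain.

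In the mevalonate steps FDPS, farnesyl diphosphate synthase, and the kinase PMVK were highest at 5.58 and 5.39 log2 CPM per kb. HMGCS1, which makes HMG-CoA, was at 4.07 and the isomerase IDI1 at 3.75. The decarboxylase MVD and mevalonate kinase MVK were lowest at 3.26 and 2.74. Of the regulators, SREBF1 was at 5.88 and SREBF2 at 4.87, so that the gene for the factor tied mainly to fatty acid synthesis stood above the gene for the factor tied mainly to cholesterol synthesis. SCAP was at 4.39 and INSIG1 at 3.70, with INSIG2 between them. STARD4, a sterol carrier protein, was the lowest of all 30 at 1.34, or percentile 48.4 of all genes.

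Another 22 genes of lipid handling had a median of 3.70 log2 CPM per kb, and 12 of them were in the highest 25.0% of genes. FADS2, a desaturase of polyunsaturated chains, and SLC25A1, which exports mitochondrial citrate, led them at 5.89 and 5.88. ABCA1, the cholesterol efflux pump, was lowest at -0.70.

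The promoters of the genes were searched for 4 short motifs known from this pathway, on both strands, in the 300 bases from 250 before to 50 after a start site. The motifs were TCACNCCAC for the sterol regulatory element bound by SREBP, CCAAT for the NF-Y box, GGGCGG for the SP1 box and CACGTG for the E-box. RefSeq promoters of build GRCh38.p14 were matched by symbol for 27 of the 30 genes, with the first listed start site taken for the 8 genes with several. These start sites can differ from those used further on for ATAC-seq and enhancers. FDFT1, SQLE and FASN had no entry. The 4 promoters shown were picked for their matches or their ATAC-seq values. SREBF2 held the 1 match to the sterol regulatory element, MVK and NSDHL held the most NF-Y boxes, and MVD had the largest ATAC-seq score ratio described further on. Capitals mark every match to any of the 4 motifs.
SREBF2 (chr22:41832855-41833154, plus strand): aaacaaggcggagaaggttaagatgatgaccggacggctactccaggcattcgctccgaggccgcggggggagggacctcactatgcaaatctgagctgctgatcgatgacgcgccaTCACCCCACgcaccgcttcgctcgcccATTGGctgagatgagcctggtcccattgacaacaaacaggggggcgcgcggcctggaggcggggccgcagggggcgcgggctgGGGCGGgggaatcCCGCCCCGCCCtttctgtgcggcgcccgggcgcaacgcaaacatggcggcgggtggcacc
MVK (chr12:109573544-109573843, plus strand): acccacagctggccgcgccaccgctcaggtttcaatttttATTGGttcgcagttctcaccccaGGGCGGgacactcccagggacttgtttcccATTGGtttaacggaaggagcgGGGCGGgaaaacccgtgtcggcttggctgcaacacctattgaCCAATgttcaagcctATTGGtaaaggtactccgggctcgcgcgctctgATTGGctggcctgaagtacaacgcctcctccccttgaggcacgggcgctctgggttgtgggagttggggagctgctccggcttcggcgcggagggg
NSDHL (chrX:152830813-152831112, plus strand): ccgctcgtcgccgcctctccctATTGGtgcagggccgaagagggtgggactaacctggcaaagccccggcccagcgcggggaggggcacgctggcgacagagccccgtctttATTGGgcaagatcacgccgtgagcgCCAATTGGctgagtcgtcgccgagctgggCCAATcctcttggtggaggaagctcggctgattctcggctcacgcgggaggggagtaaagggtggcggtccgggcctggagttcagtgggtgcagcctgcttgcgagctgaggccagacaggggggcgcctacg
MVD (chr16:88663042-88663341, minus strand): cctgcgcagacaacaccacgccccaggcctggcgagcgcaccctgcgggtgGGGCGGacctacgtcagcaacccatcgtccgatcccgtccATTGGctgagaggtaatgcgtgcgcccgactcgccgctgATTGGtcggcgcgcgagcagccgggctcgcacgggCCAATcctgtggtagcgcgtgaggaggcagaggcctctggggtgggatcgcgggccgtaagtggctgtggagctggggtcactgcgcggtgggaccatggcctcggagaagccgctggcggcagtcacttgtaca

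NF-Y boxes were frequent in these promoters. Of the 27, 17 (63.0%) held at least 1, against 35.7% of the 27305 genes with a promoter and 37.0% of the 9721 of those that averaged at least 1 CPM. At least 3 were found in 5 genes (18.5%), namely MVK, MVD, FDPS, NSDHL and EBP, against 3.42% of all genes and 4.68% of those of at least 1 CPM. That threshold was chosen after the values were seen. By role, 6 of 7 promoters of the squalene and sterol steps, 4 of 6 of the mevalonate steps, 3 of 6 of the regulators and 4 of 8 of fatty acid synthesis held a match. These counts hold for the start sites searched. IDI1 held none there, but the open enhancer overlapping its promoter, described further on, held 3 in 586 bases. INSIG2, SCAP and ME1 held none in either. MVK and NSDHL had 5 matches each, and in NSDHL the neighbours starting 113 and 110 bases before the start site share bases as CCAATTGG.

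SP1 boxes were found in 24 of the 27 (88.9%), against 44.6% of all genes and 68.8% of those of at least 1 CPM. The median GC content of the 27 promoters was 67.3%, against 58.3% in all genes and 65.0% in genes of at least 1 CPM. LSS had the most matches with 7. E-boxes were found in 4 promoters, those of LSS, INSIG1, SCAP and ELOVL5 (14.8%), against 7.43% of all genes and 10.3% of those of at least 1 CPM. The sterol regulatory element matched in SREBF2 alone, 133 bases before its start site, as against 1.15% of all genes, and 1 gene among 27 is too few to set against that share. ACACB held no match to any of the 4 motifs and was at 46.0% GC, the lowest of the 27. That describes the start site searched, where neither ATAC-seq list had a peak. A match describes letters of the reference and not a bound site, and the lack of a match does not show that no site is present.

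**Figure D2:**
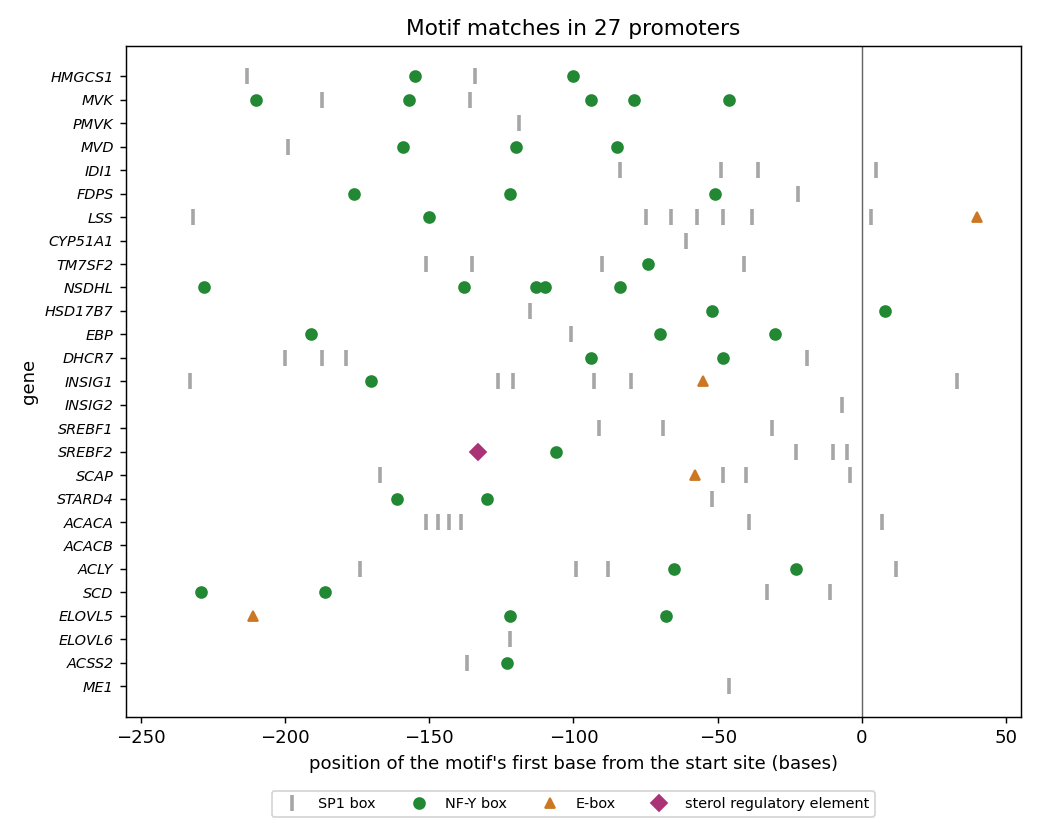
Position of each motif match in the 27 promoters, in bases from the start site, by gene. NF-Y boxes (circles) are found in 17 promoters, with 1 match in HSD17B7 after the start site, and SREBF2 carries the single sterol regulatory element match.

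In the ATAC-seq data most of these promoters were accessible under both treatments. A promoter was taken as 1000 bases before to 100 bases after any start site of the gene, and the highest peak in it was used. Start sites here are those of GENCODE's basic set, the transcripts the annotation marks as representative, and further start sites of other transcripts were left out. A vehicle peak was present at 27 of the 30 genes (90.0%), against 56.0% of all genes and 75.4% of genes of at least 1 CPM. A TSA peak was present at 28 (93.3%), against 60.4% and 80.0%. HSD17B7 and ACACB had no promoter peak in either list, although ACACB had one in both when every annotated transcript was used. The authors kept only uniquely mapped ATAC-seq reads. Whether the near copies of HSD17B7 cost it a peak was not tested. SCD had a peak only in the TSA list, as did 5.72% of all genes, with a score of 0.0394. The vehicle list ends at a score of 0.0390, so SCD sat at the edge of what either list reports, although its transcript level was at percentile 95.5 per kb.

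The score is the density of ATAC-seq insertions that Fseq reports for a peak, and it was not scaled between the 2 lists. HMGCS1 had the highest promoter score, 0.384 under vehicle and 0.428 under TSA. It was at percentile 99.4 of all vehicle peaks. INSIG1 had 0.238 and 0.332, INSIG2 had 0.238 and 0.287, SQLE had 0.215 and 0.270, and STARD4 had 0.203 and 0.226. These 5 promoters had the highest vehicle scores of the 30 genes. They include that of STARD4, whose level was the lowest of the 30. The 7 fatty acid synthesis genes with a vehicle peak ran from 0.0533 for ELOVL5 to 0.110 for ELOVL6.

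Under TSA the score was higher at 25 of the 27 promoters with both peaks and lower at 2 (7.41%). A lower score was found for 24.2% of the 11398 genes with both peaks, and for 23.4% of those of at least 1 CPM. The median log2 ratio of TSA to vehicle score was 0.30 for the 27 genes, with a range of -0.29 to 0.88, and 0.20 for all genes. Relative to all genes the shift was thus 0.10. The quartiles of all genes were 0.01 and 0.41, and 18 of the 27 lay between them. By role the medians were 0.33 for the squalene and sterol steps, 0.30 for the mevalonate steps, 0.29 for fatty acid synthesis and 0.28 for the regulators.

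The largest ratio was at MVD (chr16:88728757-88730383 in hg19), where the score went from 0.0721 under vehicle to 0.133 under TSA, a log2 ratio of 0.88 and percentile 97.1 of all genes. NSDHL went from 0.152 to 0.227, a log2 ratio of 0.58. FASN went from 0.0921 to 0.135, a log2 ratio of 0.55. These genes come from 3 different roles. At the other end ELOVL6 went from 0.110 to 0.0901, a log2 ratio of -0.29 and percentile 4.7 of all genes. EBP went from 0.164 to 0.154, a log2 ratio of -0.08. ACACA, the next lowest, went from 0.0895 to 0.0973, a log2 ratio of 0.12. With 1 pooled score per condition none of these differences can be set against the spread between replicates.

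**Figure D3:**
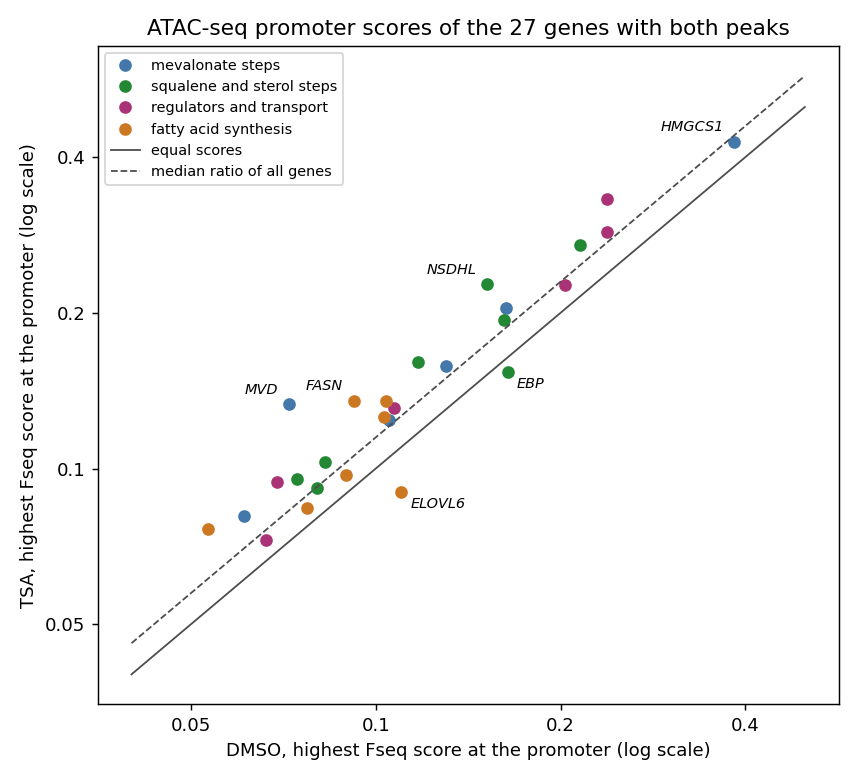
Highest Fseq score at each promoter under DMSO (horizontal, log scale) and TSA (vertical, log scale) for the 27 genes with a peak in both lists, coloured by role; each point is 1 gene from pooled libraries. The solid line is equal scores and the dashed line the median ratio of all genes (0.20 on the log2 scale). ELOVL6 and EBP lie under the solid line and MVD is farthest above the dashed line.

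Enhancers were read from the WHG-STARR-seq peaks. The authors split them into open ones, which overlap a DNase I site of LNCaP cells, and closed ones, which do not. The series holds 11980 open and 82547 closed enhancers. The distance is that of an enhancer's centre from the nearest start site of the gene in the basic set. Fold is output at the peak summit over a scaled input, with 1 added to each, as MACS2 reports it. The lowest scaled input near the genes, 8.4, recurred at unrelated peaks. Among them were the STARD4 enhancer with a fold of 11.8 and the NSDHL one with 5.21. Whether 8.4 was the input measured there or a shared floor was not tested. The 95% interval of a fold is the exact Poisson interval of the output fragments put through the same ratio, with the scaled input held fixed. It covers counting error of the output only. The authors pooled fragments over several indexing libraries per replicate and kept duplicates between them. The same fragment can thus be counted more than once, and the intervals can be too narrow.

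Within 10 kb of a start site, 14 of the 30 genes (46.7%) had an open enhancer, against 34.2% of all genes and 42.2% of genes of at least 1 CPM. A closed enhancer lay within 10 kb of 12 genes (40.0%), against 45.4% and 44.8%. Within 50 kb the counts were 19 genes (63.3%) for open enhancers, against 56.7% and 64.9%, and 29 genes for closed ones (96.7%), against 90.5%. Read against expressed genes the 30 thus differed little from the background in how often an enhancer lay nearby. FASN was the 1 gene with no closed enhancer within 50 kb, and it had 3 open ones.

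An open enhancer overlapped the promoter itself at 9 genes (30.0%), against 19.7% of all genes and 27.0% of genes of at least 1 CPM. They were MVK, IDI1 and FDPS of the mevalonate steps, NSDHL of the sterol steps, SCAP, SREBF2 and INSIG2 of the regulators, and ACLY and ME1 of fatty acid synthesis. Their fold enrichment ran from 2.11 at FDPS, with an interval of 1.59 to 2.75, to 5.59 at SCAP, with an interval of 4.51 to 6.85. SREBF2 stood at 3.62, with an interval of 2.80 to 4.62. MVK stood at 3.21, with the start of the neighbouring MMAB nearer to the enhancer's centre. ME1 stood at 3.12, NSDHL at 3.1, ACLY at 2.97, INSIG2 at 2.69 and IDI1 at 2.38. The interval of SCAP overlapped that of SREBF2 and lay above those of the others, which is not a test of a difference between promoters. Each of these 9 promoters also carried an ATAC-seq peak in both lists, as did those of 27 of the 30 genes and 11398 of all 20835 genes. An open enhancer overlaps a DNase I site by definition, so a peak there is no independent result. The share among all genes with an open enhancer at the promoter was not computed. At 2 genes a closed enhancer overlapped a promoter (6.67%, against 5.50% of all genes), ACACA with a fold of 3.76 and ACACB with 2.47. The one at ACACA lies at an internal start site. These counts rest on the choice of start sites. With every annotated transcript an open enhancer overlapped a promoter at 11 genes (36.7%, against 23.0% of all genes), adding DHCR7 and MVD. A closed one then did so at 6 (20.0%, against 13.0%), adding ACLY, ACSS2, LSS and MVK.

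**Figure D4:**
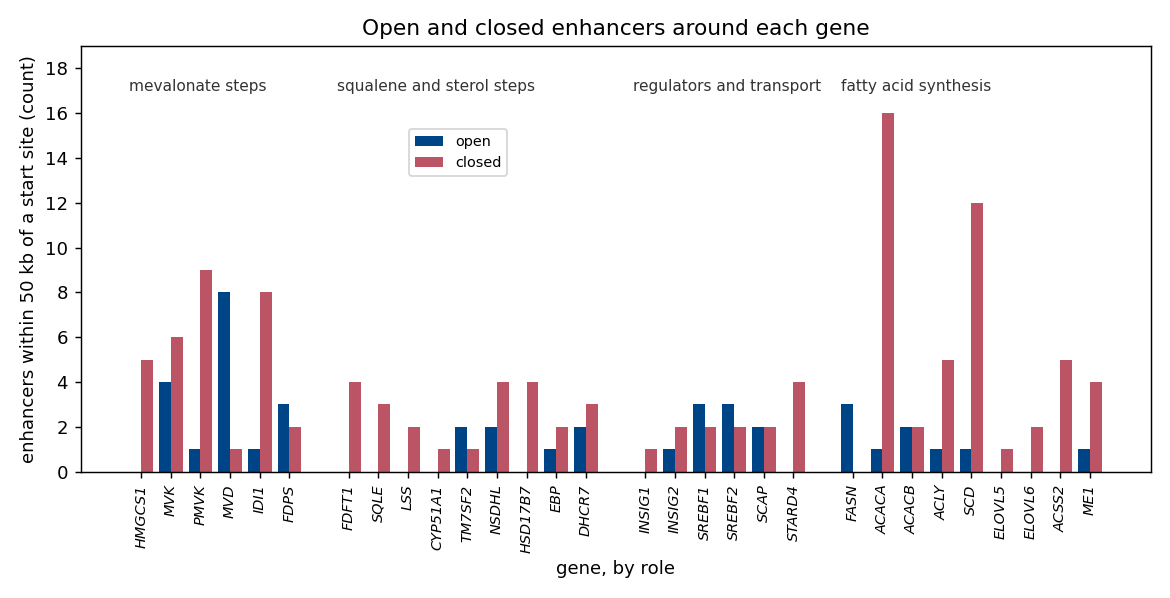
Count of open and closed enhancers for each of the 30 genes, by role, with a window of 50 kb to each side of its start sites. MVD has the most open enhancers (8), and ACACA (16) and SCD (12) have the most closed ones.

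MVD was surrounded by open enhancers more than any other of the 30, with 8 within 50 kb. Their fold was low, from 1.75 to 2.54, and 1 of them lay in a vehicle ATAC-seq peak. Of the 8, 3 lay in the gene itself, between 5.11 and 7.97 kb from the start site, with folds of 2.12, 2.11 and 2.03. MVD was the nearest gene for 1 of the 8, and the other 7 were nearer to IL17C, CYBA, SNAI3, RNF166 or CTU2. ACACA had 16 closed enhancers within 50 kb and 9 within 10 kb, with 13 of the 16 in its introns. Its 4 start sites span 110.2 kb, so its windows cover more sequence than those of other genes. The strongest of these stood at a fold of 4.67, with an interval of 3.42 to 6.24, at chr17:35655346-35655860. SCD had 12 closed enhancers and 1 open one within 50 kb, and PMVK had 9 closed ones.

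The 42 open enhancers within 50 kb had a median fold of 2.66, against 2.78 for all open enhancers, and the 115 closed ones 2.94, against 3.1 for all closed ones. A vehicle ATAC-seq peak covered 21 of the 42 open ones (50.0%, against 37.8% of all open enhancers) and 1 of the 115 closed ones (0.870%, against 1.68% of all closed ones). A TSA peak covered 22 of the open ones (52.4%, against 42.4% of all open enhancers) and 1 of the closed ones (0.870%, against 2.65% of all closed ones). The closed enhancer in a vehicle peak was near EBP and the one in a TSA peak was near MVK. Open enhancers near the genes were GC rich, with a median of 61.1%, against 47.0% in the closed ones. The medians over all enhancers were 57.9% and 46.1%. Of the 42 open ones, 22 lay upstream, 9 at a promoter and 8 downstream, and the member was the nearest gene for 15. Of the 115 closed ones, 49 lay upstream, 36 in introns and 25 downstream, and the member was the nearest gene for 61.

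**Figure D5:**
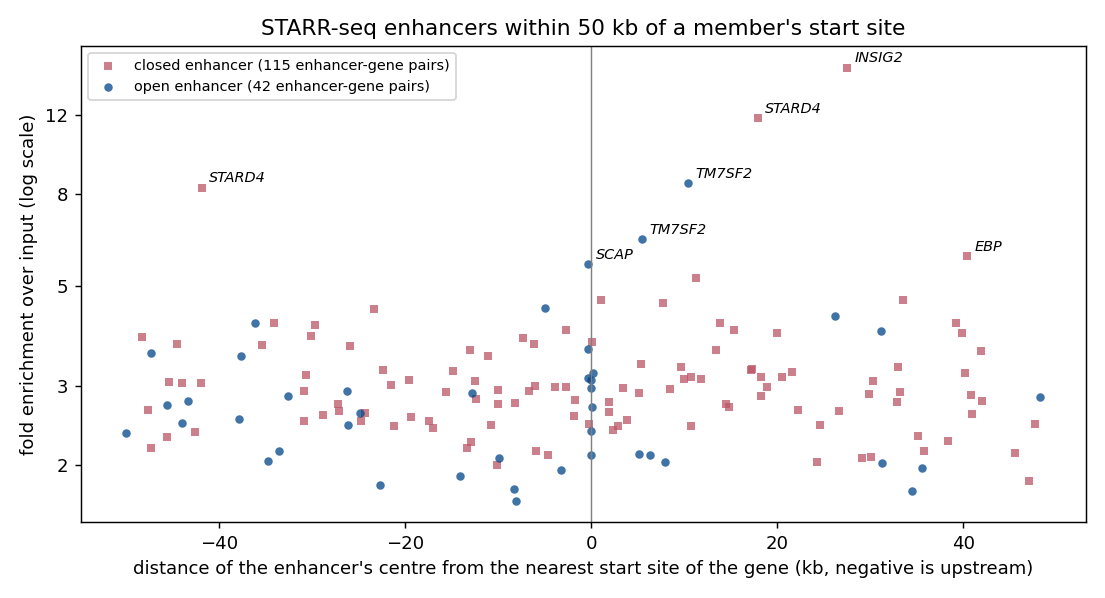
Fold enrichment over input (log scale) of the 42 open and 115 closed enhancers near the genes, against the distance of the enhancer's centre from that start site in kb. The 7 strongest points, which carry gene names, are closed enhancers near INSIG2 (15.3), STARD4 (11.8 and 8.27) and EBP (5.83), and open ones near TM7SF2 (8.47 and 6.35) and at the SCAP promoter (5.59).

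The 2 strongest enhancers stood far above the rest in fold, and the weakest of those named here lay close to the remaining ones. The highest fold of all was at a closed enhancer 27.5 kb from the start site of INSIG2 and downstream of the gene (chr2:118873127-118873974 in hg19). It had 217 output fragments against a scaled input of 13.2, a fold of 15.3 with an interval of 13.37 to 17.51. A pair of closed enhancers near STARD4 followed. The one downstream of the gene, 17.94 kb from the start site (chr5:110829903-110830686), had 110 fragments and a fold of 11.8 with an interval of 9.73 to 14.21. The one upstream, 41.79 kb away (chr5:110889672-110890487), had 107 fragments and a fold of 8.27 with an interval of 6.79 to 9.98. For all 3 the member was the nearest gene, and neither ATAC-seq list had a peak there. The 2 next strongest closed enhancers lay 40.41 kb from EBP, with a fold of 5.83, and in an intron of NSDHL, with a fold of 5.21. The one near EBP was nearer to RBM3.

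The strongest open enhancers lay downstream of TM7SF2, the gene with the highest level per kb of the 30. The one 10.38 kb from its start site had 259 fragments and a fold of 8.47 with an interval of 7.47 to 9.56. The one 5.51 kb away had 198 fragments and a fold of 6.35 with an interval of 5.50 to 7.29. Both lay in ATAC-seq peaks of both lists, and both were nearer to another gene, MRPL49 for the first and ZNHIT2 for the second, so TM7SF2 is a neighbour and not the nearest start. The SCAP promoter enhancer came next. An open enhancer 5.00 kb upstream of the nearest basic start site of DHCR7 had a fold of 4.47 and was nearer to NADSYN1. An open enhancer 26.16 kb from the start of SCD and past its end had a fold of 4.29. It was nearer to NCRNA00263, and it lay in a peak of the TSA list and in no vehicle peak.

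The 200 bases around the summit are shown for 4 of these enhancers, 2 closed and 2 open, from the GRCh37 sequence on the plus strand. They were picked as the strongest of their kind, with the SCAP one taken for lying at the promoter of a member. Capitals mark matches to the motifs named above.
INSIG2 closed (chr2:118873443-118873642): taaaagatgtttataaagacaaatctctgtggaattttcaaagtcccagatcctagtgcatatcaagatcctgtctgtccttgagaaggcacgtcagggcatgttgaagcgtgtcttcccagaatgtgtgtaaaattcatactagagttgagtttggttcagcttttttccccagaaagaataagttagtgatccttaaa
STARD4 closed (chr5:110830158-110830357): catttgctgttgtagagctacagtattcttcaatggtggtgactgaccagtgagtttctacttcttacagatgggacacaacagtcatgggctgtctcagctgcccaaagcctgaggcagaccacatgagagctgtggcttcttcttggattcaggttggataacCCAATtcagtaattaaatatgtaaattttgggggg
TM7SF2 open (chr11:64889565-64889764): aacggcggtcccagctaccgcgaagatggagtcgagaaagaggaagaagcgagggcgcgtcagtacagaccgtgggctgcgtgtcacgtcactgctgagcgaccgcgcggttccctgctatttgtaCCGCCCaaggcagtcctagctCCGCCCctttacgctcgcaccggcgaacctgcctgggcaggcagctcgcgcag
SCAP open (chr3:47517607-47517806): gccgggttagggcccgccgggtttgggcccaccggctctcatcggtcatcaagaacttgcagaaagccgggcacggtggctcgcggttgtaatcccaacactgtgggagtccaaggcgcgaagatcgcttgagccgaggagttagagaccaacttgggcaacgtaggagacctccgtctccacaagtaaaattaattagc

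The 2 closed enhancers were AT rich over their whole length, at 43.5% and 37.9% GC, and the open ones were at 60.2% for TM7SF2 and 58.4% for SCAP. Over the whole peak the closed enhancers near INSIG2 and STARD4 held 2 NF-Y boxes each and no SP1 box. The open one near TM7SF2 held 3 SP1 boxes and 1 E-box, and the one at SCAP held 5 SP1 boxes and 1 E-box. None of the 4 held a sterol regulatory element.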

How the data were processed

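LNCaP cells were profiled by WHG-STARR-seq, ATAC-seq and mRNA-seq. The authors aligned reads to hg19 (Bowtie; Bowtie with cutadapt and Bowtie2; TopHat), and no source states the versions. They collapsed duplicate fragments with Picard, pooled the output replicates, and called enhancers with MACS2 against the input. The deposited ratio column is fold enrichment at the summit, with 1 added to output and to input, and the deposited −log10 columns are p and q. Output fragments were recovered from fold and p to within 0.0001 in −log10 p. The deposited signal column is the Fseq score of ATAC-seq peaks, called on pooled libraries (38813 vehicle and 40995 TSA peaks). The deposited log2 column is the average log2 CPM of the authors' edgeR fit. The paper describes that fit as a comparison of TSA with vehicle, so TSA-treated cells probably enter the average. The sources used here do not state which libraries enter it or how deep each was. The authors' comparison columns (log2 fold change, likelihood ratio, p, q) were not used, nor was 1 DNase I score column of another study's samples.

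Of 22336 genes, 20835 were matched by symbol or older symbol to GENCODE v44lift37, whose basic set of transcripts gave start sites and exon lengths. Python 3.11.15 scripts with pandas 2.3.3 and SciPy 1.17.1 were tested on simulated data. The 30 genes, gene lists and motifs were chosen with earlier results of these data known. All 30 genes are described by role, with the 5 strongest open and 5 strongest closed enhancers within 50 kb, the 3 highest and 3 lowest ATAC-seq ratios and peaks found in 1 list only. The comparison with genes of at least 1 CPM was added after the values were seen, as was the use of every annotated transcript in place of the basic set.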

Additional observations from a re-analysis of the deposited data

How the results depend on the processing

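The 7 results were recomputed under 25 alternatives, of which 5 were added after seeing the data. In 20 a count stayed within 1.5 times the reported one, or a median moved by less than 1 SD among the genes. That SD was 0.22 for the ATAC-seq ratio and 14.0 for the percentile of the level. The median ATAC-seq ratio stayed positive in all of its alternatives. Counts were judged by size only, and not by whether they lay above or below the share of all genes. The count of genes with a closed enhancer within 10 kb, 12, became 29 at 50 kb (90.5% of all genes) and 23 when a gene was counted as the nearest one to a closed enhancer at any distance (70.0% of all genes). With the start sites of every annotated transcript, one of those added, it became 19 (56.5% of all genes), while the count with an open enhancer stayed at 14 and those with a vehicle or TSA peak became 28 and 29. The share of all genes moved with the closed count. At 10 kb the share of the 30 genes was below that of all genes (40.0% against 45.4%). In each of the settings that moved the closed count it was above that of all genes. It was also above at 5 kb, with 9 of the 30 genes against 26.8% of all genes. With enhancers of a q-value under 1e-05 it was below, with 11 of the 30 against 41.0%. The count with a sterol regulatory element in the promoter, 1, became 3 within 500 bases to each side of 1 start site (SREBF2, HMGCS1 and ACACB, against 4.13% of 13345 genes) and 2 over all start sites of the basic set (SREBF2 and HMGCS1, against 2.26% of 13438 genes). Both were read from GRCh37 with GENCODE start sites, for genes of the expression table that have a RefSeq promoter. In either set of genes 1.18% held the element in the RefSeq promoter. The build, start sites and length searched changed together, and the cause was not tested. The percentile of the median level was 83.2 with the longest transcript as length and 76.0 among genes of at least 1 CPM. Less the median over all genes, the median ATAC-seq ratio fell from 0.30 to 0.10, which is under 1 SD among the genes but a large part of its size. No paired analysis was possible because the values are pooled over replicates, and for the same reason no replicate could be left out. Depth limits the enhancer folds, which rest on 42 to 259 output fragments for open and 25 to 217 for closed enhancers near the genes.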
